A study of Homo sapiens with 16 samples.

Results

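The comparison was between 2 kinase inhibitors, MK25 and VX745, in LN229 cells kept in ischemic culture, with 2 RNA-seq libraries for each inhibitor. These 4 libraries were identified by their labels, out of 12 libraries in the same experiment and 16 in the whole series, and all 14024 genes listed for that experiment were tested. The comparison and the gene lists used below were chosen with earlier results of these data known. LN229 is an established human glioblastoma (GBM) line. Ischemic culture combined low glucose, low glutamine and little serum with low oxygen, and regular culture was complete medium. The other libraries of the experiment were ischemic cultures with the solvent DMSO and regular cultures with DMSO, VX745 or MK25, with 2 libraries each. The remaining 4 libraries, from untreated cells in either culture, were used only to name genes that respond to ischemia. The direct comparison asks where inhibition of MK2 and inhibition of p38α leave different transcripts behind, without a shared DMSO group between them.

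VX745 inhibits p38α (*MAPK14*), a stress-activated kinase that phosphorylates many substrates, and MK25 inhibits MK2 (*MAPKAPK2*), one of the kinases directly downstream of p38α. MK2 is best known for phosphorylating tristetraprolin (*ZFP36*) and related proteins, which bind AU-rich elements in the 3' UTR of cytokine mRNAs and promote their decay. The p38α kinase also acts through other routes, among them the kinases MSK1 and MSK2 (*RPS6KA5*, *RPS6KA4*) and feedback onto its own upstream activators. The labels give no concentrations, and the study's methods list MK25 at a higher concentration than VX745 without naming the assay, so target, compound and concentration cannot be told apart here.

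The 4 libraries held between 31694666 and 37562668 reads on listed genes, and the 2 ischemic DMSO libraries held 27239609 and 32850374. Values are log2 normalized CPM (read counts scaled to a common library size), called levels below. A difference is the MK25 mean minus the VX745 mean on that log2 scale, with its standard error (SE) and n = 2 libraries per group. The SE and p-values draw on the spread within all 6 groups of the experiment, not on the 4 libraries alone. Nothing in the labels says that the 2 libraries of a group came from separate cultures, so the p-values measure the spread between libraries only. The median standard deviation between the 2 libraries was 0.064 with MK25 and 0.048 with VX745. Markers of the glial tumor line were present, with *VIM* between 12.1 and 12.21, *CD44* between 9.74 and 9.98 and *NES* between 8.6 and 9.07 in the 4 libraries, and *GFAP* lay between -0.36 and 0.44. Of 23 markers of blood, endothelial, epithelial, neuronal, oligodendrocyte and liver cells, 6 were listed and none of the 6 was called.

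A gene was called when its adjusted p (limma, Benjamini-Hochberg over all 14024 genes) fell below 0.05 with a change of 1.5-fold or more. By this rule 246 genes (1.75%) were higher and 309 (2.2%) were lower with MK25 than with VX745. Without a fold threshold, 1153 genes (8.22%) were higher and 1427 (10.2%) lower. These shares of all genes are the ones to set beside the list counts below. Of the 555 called genes, 554 had both MK25 libraries on the same side of both VX745 libraries, as did 63% of all genes. A difference of at least 2-fold was found for 67 higher and 108 lower genes. Of the 10 largest rises 9 are described here, of which *INSIG1*, *SCD*, *STARD4*, *FADS2* and *SREBF2* belong to the lists of sterol or fatty acid synthesis, and the others were *TNS1*, *FOS*, *ID2* and *IGFBP5*. The 10 largest falls included the transcription factor genes *CREB5*, *EGR1* and *JUN*. In bulk RNA a lower level can mean fewer expressing cells or less RNA per cell, and these cannot be told apart.

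**Figure D1:**
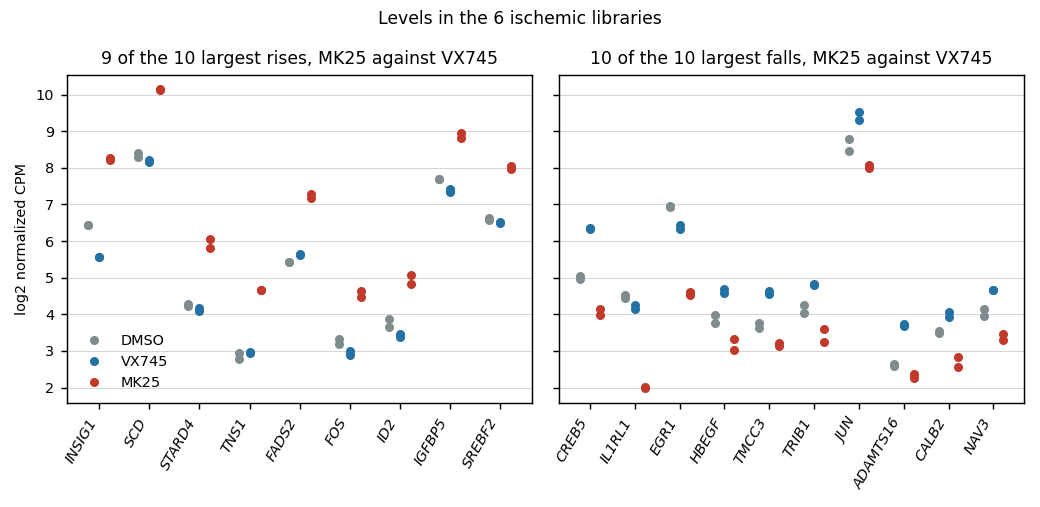
Level (log2 normalized CPM, vertical axis) of 9 of the 10 largest rises and the 10 largest falls of MK25 against VX745 in each ischemic library, with 1 point per library, colored by treatment. *INSIG1* sits at 8.21 and 8.28 with MK25 against 5.56 and 5.57 with VX745, and *CREB5* at 3.99 and 4.14 against 6.33 and 6.35. The MK25 and VX745 points do not overlap, which the choice of these genes required.

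Cells make their own cholesterol when SREBP2 (*SREBF2*) moves from the endoplasmic reticulum to the Golgi, is cut there and enters the nucleus, and *INSIG1* both holds it back in the endoplasmic reticulum and is one of its target genes. Of 23 genes of sterol synthesis and uptake, 16 were called higher with MK25 than with VX745 and none lower, and the median difference of the list was 0.95, against -0.0057 over all genes. All 23 members had a difference above 0. *INSIG1*, at chr7:155297878-155310235 in GRCh38.p14, had the largest rise of the ranked genes. Its level was 8.21 and 8.28 with MK25, 5.56 and 5.57 with VX745 and 6.45 and 6.45 with DMSO. MK25 was thus above DMSO and VX745 below it, with no overlap between the 3 groups. The difference was 2.68 ± 0.074, a 6.43-fold change (limma, adjusted p = 2.22e-13).

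*STARD4*, which moves cholesterol between membranes, stood at 5.82 and 6.06 with MK25 and 4.16 and 4.1 with VX745 (1.81 ± 0.097, limma, adjusted p = 8.53e-10). *SREBF2* itself stood at 8.04 and 7.96 against 6.53 and 6.5 (1.49 ± 0.055, limma, adjusted p = 1.36e-11). The DMSO libraries of *SREBF2* were nearer the VX745 ones, at 6.57 and 6.63. Enzymes of the pathway followed at smaller differences. *DHCR7*, which acts late in cholesterol synthesis, differed by 1.37. *IDI1* and *HMGCS1*, which act early, differed by 1.41 and 1.29. The members that were not called included *FDPS* at 0.15 and *NSDHL* at 0.5, the second of which passed the adjusted p but not the fold threshold.

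The promoter of *SREBF2* is shown because SREBP2 is known to act on its own gene. The window of 250 bases before to 50 bases after its start (RefSeq, GRCh38.p14, chr22:41832855-41833154, plus strand) holds 1 match to the sterol regulatory element TCACNCCAC, in capitals.
SREBF2: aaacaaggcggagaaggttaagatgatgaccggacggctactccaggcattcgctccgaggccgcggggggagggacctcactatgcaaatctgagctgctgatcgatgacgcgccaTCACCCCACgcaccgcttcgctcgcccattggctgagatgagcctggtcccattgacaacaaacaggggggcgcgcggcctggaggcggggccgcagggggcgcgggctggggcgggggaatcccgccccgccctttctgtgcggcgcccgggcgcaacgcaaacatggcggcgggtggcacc
A match on either strand was found in 1 of 18 sterol list members with a window, in 1.69% of the genes called higher, in 0.926% of those called lower and in 1.39% of all tested genes with a window.

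Fatty acid synthesis followed the same direction. Of 15 listed genes, 7 were called higher with MK25 and none lower, with a median of 0.5. *SCD*, the desaturase that makes monounsaturated fatty acids, stood at 10.14 and 10.13 with MK25, 8.22 and 8.15 with VX745 and 8.29 and 8.41 with DMSO (1.95 ± 0.076, limma, adjusted p = 1.43e-11). *FADS2*, which desaturates polyunsaturated fatty acids, stood at 7.3 and 7.17 against 5.65 and 5.61 (1.61 ± 0.063, limma, adjusted p = 1.43e-11). *FASN*, the fatty acid synthase, differed by 1.2 and *LPIN1*, a phosphatidate phosphatase, by 1.01. The remaining 3 called members were *PNPLA3* (0.88), *FADS1* (0.78) and *ACSL3* (0.76). *SREBF1*, which encodes the factor SREBP1, passed the adjusted p at 0.5 but not the fold threshold. *ELOVL1*, an elongase of very long chain fatty acids, went the other way at -0.28, below the fold threshold.

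NFkB induces genes that restrain it as well as inflammatory effectors. Of 19 such targets, 6 were called higher with MK25 and none lower, and 12 were higher at any fold (8.22% of all genes were). The median difference was 0.51, with a median of 0.21 for MK25 minus DMSO and -0.25 for VX745 minus DMSO, which share the same DMSO libraries. *ICAM1*, an adhesion molecule for leukocytes, stood at 9.1 and 8.89 with MK25, 8.13 and 8.06 with VX745 and 8.52 and 8.49 with DMSO (0.9 ± 0.063, limma, adjusted p = 2.00e-08). *TNFAIP3*, which encodes the deubiquitinase A20, stood at 8.16 and 8.04, 7.28 and 7.25 and 7.15 and 7.26 in the same order (0.84 ± 0.066, limma, adjusted p = 7.46e-08). *NFKBIA*, the inhibitor IκBα, differed by 0.73 and *NFKBIZ*, an atypical IκB, by 0.68, which went to 0.56 and below the fold threshold without the first MK25 library. The NFkB subunits *NFKB1* and *RELA* were not called, at 0.12 and -0.023.

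Cytokines and inflammatory mediators went both ways. Of 19 listed genes, 5 were called higher with MK25 and 1 lower, and the median was 0.16. The neutrophil chemokine *CXCL1* stood at 6.39 and 5.68 with MK25, 4.9 and 4.88 with VX745 and 5.6 and 5.8 with DMSO (1.15 ± 0.15, limma, adjusted p = 2.31e-05). Its MK25 libraries lay far apart, and the lower of them was inside the range of the DMSO libraries. *CXCL3* followed the same order at 3.53 and 3.0, 2.15 and 2.04 and 2.77 and 2.96 (1.17 ± 0.15, limma, adjusted p = 2.91e-05). *CXCL8* was not called. It stood at 7.73 and 7.53 with MK25 and 7.48 and 7.46 with VX745, below the 8.91 and 8.81 of DMSO, and the difference between the inhibitors was 0.16 ± 0.083 (limma, adjusted p = 0.212). In regular culture, however, *CXCL8* was higher with MK25 than with VX745 by 1.27 ± 0.083 (limma, adjusted p = 7.55e-09). Of the 19 listed genes, 4 were called higher and none lower in regular culture.

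*TNFSF9* (4-1BB ligand) and the monocyte chemokine *CCL2* were called higher with MK25, at 0.79 and 0.64. Without the first MK25 library, *CCL2* fell below the fold threshold, at 0.37. *CSF3*, the granulocyte growth factor, was called higher at 2.19 ± 0.65, but on few reads, with 40 and 38 with MK25 against 4 and 8 with VX745. It lost its call when any of the 4 libraries was left out, as did *TSLP*, the one cytokine called lower (-1.0, 38 and 31 reads against 59 and 67). *IL1B*, at 3.67 and 3.71 with MK25 and 4.27 and 4.25 with VX745, passed the adjusted p at -0.57 ± 0.1 (limma, adjusted p = 6.00e-04) but not the fold threshold, and DMSO was above both at 4.81 and 4.8. *PTGS2*, the inducible cyclooxygenase, was likewise below DMSO (6.65 and 6.71) with both inhibitors, at 6.0 and 6.03 with MK25 and 5.62 and 5.59 with VX745, a difference of 0.41. *IL11* and *LIF* differed by -0.33 and -0.22, *IL6* by 0.45, *IL1A* by -0.13 and *CSF2* by 0.075, and the last 3 did not pass the adjusted p. *TNF* is not among the genes analysed here.

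AU-rich sites of several of these genes are shown because MK2 acts on proteins that bind them. Each run is the 3' UTR stretch around the first nonamer TTATTTATT (capitals) of the transcript used, read from GENCODE release 44 on GRCh38 and written as DNA. The sites lie in single exons, for *CXCL1* at chr4:73870674-73870702 (plus strand), *CXCL3* at chr4:74036773-74036801 (minus), *CXCL8* at chr4:73742664-73742692 (plus), *FOS* at chr14:75282060-75282088 (plus), *TNFAIP3* at chr6:137882298-137882326 (plus), *IL1B* at chr2:112829995-112830023 (minus), *TGFB2* at chr1:218441820-218441848 (plus) and *PLAUR* at chr19:43648601-43648629 (minus).
CXCL1: agtcttctatTTATTTATTtattcattag
CXCL3: atgtcagttgTTATTTATTcaaattatct
CXCL8: atgtaaagtaTTATTTATTtgaatctaca
FOS: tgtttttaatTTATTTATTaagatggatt
TNFAIP3: gtaattcactTTATTTATTttattacaaa
IL1B: gcttccctatTTATTTATTtatttgtttg
TGFB2: taacagtgagTTATTTATTgtgtgttact
PLAUR: aatattcataTTATTTATTttatacttac
The first 5 of these genes had differences of 1.15, 1.17, 0.16, 1.6 and 0.84, and the last 3 of -0.57, -1.04 and -0.76, so the nonamer stood in genes on both sides of 0. Over all 1247 genes with the nonamer, 31 (2.49%) were called higher and 30 (2.41%) lower, at a median of 0.0033. Over 11303 genes without it, 195 (1.73%) were higher and 242 (2.14%) lower, at a median of -0.0081. The shares over all genes were 1.75% and 2.2%. The medians with and without the nonamer both turned sign under some alternatives. With at least 2 nonamers, 7 of 301 genes (2.33%) were called higher and 4 (1.33%) lower. Among 21 regulators of AU-rich mRNAs, *ZC3H12A*, which encodes the RNase regnase-1, was the 1 member called, at 6.63 and 6.36 with MK25 and 5.44 and 5.52 with VX745 (1.02 ± 0.077, limma, adjusted p = 4.92e-08). *ZFP36* differed by -0.34 and *ZFP36L1* by -0.52, both past the adjusted p and short of the fold threshold.

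Immediate early genes, many of which encode transcription factors, are induced within minutes of a stimulus. Of 26 such genes, 8 were called lower with MK25 and 4 higher, with a median of -0.16. *EGR1*, a zinc finger factor downstream of ERK and *SRF*, stood at 4.62 and 4.53 with MK25, 6.45 and 6.34 with VX745 and 6.97 and 6.93 with DMSO (-1.82 ± 0.11, limma, adjusted p = 4.08e-09). Both inhibitors left *EGR1* below DMSO, and MK25 by more. *JUN*, a subunit of AP-1, stood at 8.08 and 7.99 with MK25, 9.52 and 9.31 with VX745 and 8.47 and 8.78 with DMSO (-1.38 ± 0.085, limma, adjusted p = 4.46e-09), so that VX745 was above and MK25 below DMSO. *MYC* stood at 5.75 and 5.6 with MK25 against 6.91 and 6.96 with VX745, and DMSO was near VX745 at 6.85 and 6.91 (-1.26 ± 0.08, limma, adjusted p = 5.56e-09). *CCN1*, *IER2*, *ATF3*, *KLF6* and *KLF4* made up the other called lower members, between -0.86 and -0.71. *FOS*, the partner of *JUN* in AP-1, went the opposite way, at 4.63 and 4.47 with MK25, 3.0 and 2.89 with VX745 and 3.32 and 3.18 with DMSO (1.6 ± 0.12, limma, adjusted p = 2.79e-08). The other members called higher were *NR4A2* (0.73), *KLF10* (0.65) and *JUNB* (0.61).

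*CREB5*, a bZIP factor that binds cAMP response elements, had the largest fall of the ranked genes. It stood at 3.99 and 4.14 with MK25, 6.33 and 6.35 with VX745 and 5.06 and 4.97 with DMSO (-2.28 ± 0.092, a 4.84-fold change, limma, adjusted p = 2.10e-11). DMSO lay between the inhibitors, apart from both. *IL1RL1*, the receptor for interleukin-33, stood at 1.98 and 2.01 with MK25, 4.13 and 4.25 with VX745 and 4.45 and 4.52 with DMSO (-2.19 ± 0.11, limma, adjusted p = 5.34e-10). *HBEGF*, a ligand of the EGF receptor, stood at 3.33 and 3.02 against 4.59 and 4.7 (-1.47 ± 0.13, limma, adjusted p = 2.76e-07). The other genes among the 10 largest falls were *TMCC3*, a membrane protein of the endoplasmic reticulum (-1.43), the pseudokinase gene *TRIB1* (-1.41), the metalloprotease gene *ADAMTS16* (-1.38), *CALB2*, which encodes calretinin (-1.29), and *NAV3*, which encodes a microtubule-associated protein (-1.28). For 8 of these 10 genes, all but *IL1RL1* and *EGR1*, the DMSO mean lay between the inhibitor means.

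The promoters of *EGR1*, *CREB5* and the stromelysin gene *MMP10* are shown because their windows hold a CArG box, bound by *SRF*, or a match to the AP-1 pattern TGANTCA. AP-1 sites are bound by *FOS* and *JUN*, but N stands for any base here, so a match need not be a bound site. These promoters belong to named genes and were chosen after the windows were searched. Each window covers 250 bases before to 50 bases after a RefSeq start in GRCh38.p14. Capitals mark 2 CArG boxes for *EGR1* (chr5:138465229-138465528, plus strand). They also mark 1 match to TGANTCA each for *CREB5* (TGACTCA, chr7:28685883-28686182, plus strand, one of several starts of this gene) and *MMP10* (TGAATCA, chr11:102780579-102780878, minus strand).
EGR1: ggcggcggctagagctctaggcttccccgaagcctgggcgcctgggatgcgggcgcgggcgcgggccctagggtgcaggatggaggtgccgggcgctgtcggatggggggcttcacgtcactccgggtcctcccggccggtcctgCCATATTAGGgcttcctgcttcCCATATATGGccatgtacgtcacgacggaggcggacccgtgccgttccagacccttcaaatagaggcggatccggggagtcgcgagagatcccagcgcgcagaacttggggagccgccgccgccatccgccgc
CREB5: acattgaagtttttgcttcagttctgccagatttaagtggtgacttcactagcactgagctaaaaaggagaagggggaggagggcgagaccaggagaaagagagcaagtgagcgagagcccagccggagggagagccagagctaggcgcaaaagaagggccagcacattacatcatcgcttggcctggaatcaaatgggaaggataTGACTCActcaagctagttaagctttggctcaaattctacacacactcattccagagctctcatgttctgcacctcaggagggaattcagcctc
MMP10: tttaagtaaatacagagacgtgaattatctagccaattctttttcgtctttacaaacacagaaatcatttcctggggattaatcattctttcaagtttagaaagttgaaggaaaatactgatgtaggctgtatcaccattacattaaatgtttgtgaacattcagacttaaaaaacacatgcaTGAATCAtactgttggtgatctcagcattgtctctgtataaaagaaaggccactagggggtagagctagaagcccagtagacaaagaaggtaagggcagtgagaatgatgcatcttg
On either strand, a match to TGANTCA was found for 15.7% of the genes called lower, 11.8% of those called higher and 7.26% of all tested genes with a window. A gene was counted once if any of its windows held a match. A CArG box was found for 1.85%, 0.562% and 1.55% of the same sets. Among all 35116 windows, 7.71% held a match to TGANTCA and 1.29% a CArG box. These are descriptions of the sequence and were not tested.

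Genes that mark ERK activity were called lower with MK25 for 4 of 17 members and called higher for 1, with a median of -0.18. At any fold 9 passed the adjusted p as lower and 1 as higher, beside 10.2% and 8.22% of all genes. *CCND1*, which encodes cyclin D1, stood at 7.36 and 7.31 with MK25, 8.5 and 8.52 with VX745 and 8.22 and 8.24 with DMSO (-1.17 ± 0.057, limma, adjusted p = 2.78e-10). *DUSP5*, a nuclear ERK phosphatase, stood at 5.99 and 5.97 against 7.07 and 7.11 (-1.11 ± 0.065, limma, adjusted p = 2.81e-09). *SPRY2* and *SPRY4*, inhibitors of receptor tyrosine kinase signaling, differed by -0.86 and -0.81. Their relative *SPRY1* was the member called higher, at 0.63. *DUSP6*, the cytoplasmic ERK phosphatase, was not called at -0.18, nor were *ETV4* (0.0088) and *ETV5* (-0.15). Of 6 other dual-specificity phosphatases, *DUSP16*, which acts on JNK and p38, was called lower at -0.87.

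Targets of YAP and TEAD, which report on cell shape and contact, were called lower for 5 of 22 members and higher for none, and 13 were lower at any fold (10.2% of all genes were). Their median was -0.3. *CCN2*, a matricellular protein also called CTGF, stood at 5.31 and 5.08 with MK25, 6.27 and 6.31 with VX745 and 5.43 and 5.5 with DMSO (-1.09 ± 0.076, limma, adjusted p = 2.00e-08). *TGFB2*, the ligand TGF-β2, stood at 2.08 and 2.07 against 3.0 and 3.23 (-1.04 ± 0.11, limma, adjusted p = 3.88e-06). *FJX1* and *CCN1* differed by -0.91 and -0.86, and *CCN1* was also counted among the immediate early genes above. The transcript of *YAP1* itself differed by -0.036. Among SRF and actin genes, 3 of 19 were called lower and none higher, with a median of -0.24. *FHL2*, a LIM domain protein that binds *SRF*, stood at 6.73 and 6.79 against 7.75 and 7.8, and *LIMA1*, an actin crosslinker, at 5.98 and 6.0 against 6.92 and 6.93. *CNN1*, which encodes calponin, was called at -1.58 ± 0.35 on 13 and 17 reads with MK25 and 45 and 43 with VX745.

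Of 23 matrix proteases and their inhibitors, 4 were called lower and none higher, with a median of -0.18. The collagenase *MMP1* stood at 1.45 and 1.51 with MK25, 3.16 and 3.35 with VX745 and 2.53 and 2.9 with DMSO (-1.78 ± 0.19, limma, adjusted p = 3.11e-06). *MMP10* had few reads, 9 and 16 with MK25 and 36 and 47 with VX745, and its call at -1.74 ± 0.5 was lost when the first MK25 library or either VX745 library was left out. *ADAMTS6* differed by -1.63 and *PLAUR*, the receptor of urokinase, by -0.76. The main gelatinase *MMP2* and the inhibitors *TIMP1* and *TIMP2* were not called, at -0.23, 0.052 and 0.042. Genes of TGF-β and BMP signaling and matrix were split, with 3 of 26 called higher and 2 lower. The 3 higher members were the inhibitors of bHLH factors *ID2* (4.84 and 5.09 with MK25 against 3.48 and 3.39 with VX745, 1.53 ± 0.1), *ID3* (1.25) and *ID1* (0.59), which are targets of BMP signaling, while the ligand gene *BMP2* was lower at -1.08.

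**Figure D2:**
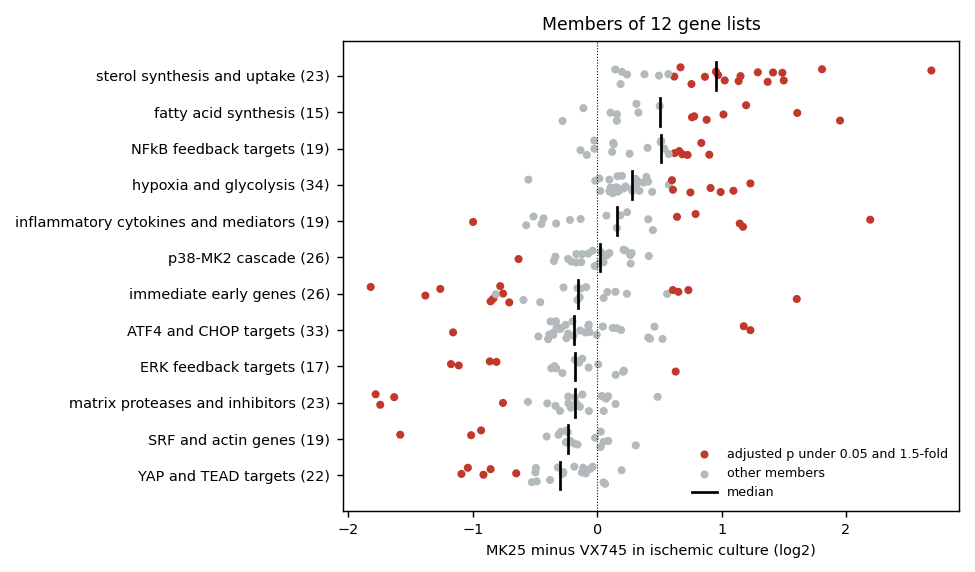
Difference between MK25 and VX745 in ischemic culture (log2, horizontal axis) for each member of 12 gene lists, with the number of measured members in parentheses. Red points were called (1.5-fold with an adjusted p below 0.05), and black bars are medians, which run from 0.95 for sterol synthesis to -0.3 for YAP and TEAD targets.

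Hypoxia and glycolysis genes are induced by HIF, and ischemic culture includes low oxygen. Of 34 such genes, 7 (20.6%) were called higher with MK25 than with VX745 and none lower, beside 1.75% and 2.2% of all genes. At any fold 20 were higher, as were 8.22% of all genes. The median was 0.28. Relative to ischemic DMSO, the list's median was -0.094 with MK25 and -0.29 with VX745. *SLC2A3*, the glucose transporter GLUT3, stood at 8.12 and 8.17 with MK25, 7.12 and 7.18 with VX745 and 8.26 and 8.27 with DMSO (0.99 ± 0.07, limma, adjusted p = 2.00e-08). *HILPDA*, a lipid droplet protein, stood at 8.81 and 8.85, 7.71 and 7.76 and 8.16 and 8.14 in the same order (1.09 ± 0.083, limma, adjusted p = 4.94e-08). *EGLN3*, an oxygen-sensing prolyl hydroxylase, differed by 1.23 and the aldolase gene *ALDOC* by 0.91. The classical targets *CA9* (0.41), *PDK1* (0.11) and *BNIP3* (0.098) were not called.

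The integrated stress response works through ATF4 and CHOP (*DDIT3*). Of 33 targets, 2 (6.06%) were called higher with MK25 and 1 (3.03%) lower, beside 1.75% and 2.2% of all genes. Without a fold threshold 7 passed as higher and 14 as lower, beside 8.22% and 10.2% of all genes. The median of the list was -0.19. *SESN2*, a stress-induced inhibitor of mTORC1, stood at 5.63 and 5.48 with MK25, 6.73 and 6.69 with VX745 and 7.05 and 7.2 with DMSO (-1.16 ± 0.077, limma, adjusted p = 1.08e-08). *GDF15*, a stress cytokine, stood at 8.94 and 8.75 with MK25, 7.71 and 7.63 with VX745 and 8.8 and 9.09 with DMSO (1.18 ± 0.087, limma, adjusted p = 3.67e-08), so VX745 was below DMSO and MK25 overlapped it. *NUPR1*, a stress-induced chromatin protein, was called at 1.23 ± 0.32, and lost the call when either MK25 library or the first VX745 library was left out. *ATF4* itself differed by -0.07 ± 0.061 (limma, adjusted p = 0.485) and *DDIT3* by 0.52 ± 0.078 (limma, adjusted p = 1.21e-04), which is under the fold threshold. Of the sensors and effectors of the unfolded protein response, *ERN1*, which encodes IRE1α, differed by -0.11 without passing the adjusted p, and *XBP1*, the transcript that IRE1α splices, by -0.49 (adjusted p = 1.87e-05). None of the 22 genes on the list of ER chaperones and ER-associated degradation was called.

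**Figure D3:**
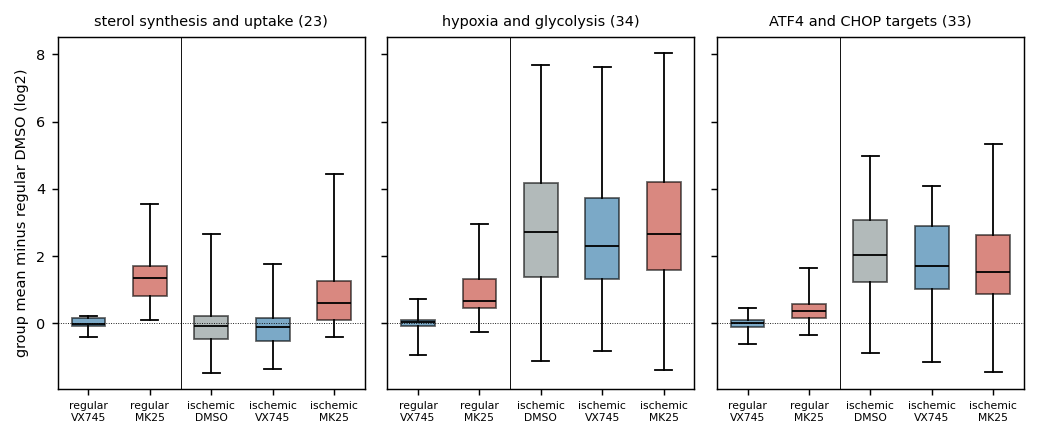
Group mean minus the regular DMSO mean (log2, vertical axis) for the members of 3 gene lists in the other 5 groups, as boxes from the lower to the upper quartile with the median as a line and whiskers to the lowest and highest member. For sterol genes the median is 1.35 in regular and 0.60 in ischemic culture with MK25, and lies between -0.12 and -0.022 with VX745 and with ischemic DMSO. For hypoxia genes it is 0.68 with MK25 and 0.047 with VX745 in regular culture, against 2.72, 2.31 and 2.67 with DMSO, VX745 and MK25 in ischemic culture.

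Of 26 genes of the p38-MK2 cascade, 1 (3.85%) was called lower and none higher, beside 2.2% and 1.75% of all genes. The called gene was *MAP2K6*, an activator of p38. The median of the list was 0.025, a value whose sign turned when some libraries were left out. *MAP2K6* stood at 3.73 and 3.68 with MK25, 4.32 and 4.35 with VX745 and 2.02 and 2.21 with DMSO (-0.63 ± 0.1, limma, adjusted p = 2.30e-04). Both inhibitors were thus above DMSO, VX745 by more. *MAP2K3*, the other main activator of p38, had the same order at 5.95 and 5.8, 6.2 and 6.22 and 5.41 and 5.39, and its difference of -0.34 passed the adjusted p (9.13e-04) but not the fold threshold. Of the targeted kinases, *MAPK14* was at 6.03 and 5.95 with MK25 and 6.16 and 6.16 with VX745 (-0.17 ± 0.056, limma, adjusted p = 0.0456), past the adjusted p alone, and *MAPKAPK2* at 7.09 and 6.98 and 7.0 and 6.97 (0.051 ± 0.058, limma, adjusted p = 0.605). Both compounds act on the proteins, so these transcripts do not check the treatment. *MAPKAPK3* and *MAPKAPK5*, the relatives of MK2, differed by -0.072 and -0.037, and *HSPB1*, a substrate of MK2, by -0.13. *RPS6KA4* differed by -0.35 and the transcription factor *MEF2A*, a p38 substrate, by 0.41, both past the adjusted p alone.

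The lists in this paragraph stand beside 1.75% of all genes called higher and 2.2% called lower. At such shares a short list holds few calls or none. Of 21 p53 targets, *PMAIP1* (NOXA, -1.15) and *GADD45A* (-1.14) were called lower and *TP53INP1* higher (1.02). *CDKN1A* and *MDM2* were not called, at -0.04 and 0.24. Of 34 genes of lysosome and autophagy, *GPNMB* (4.16 and 4.17 with MK25 against 2.73 and 2.75 with VX745) and the autophagy receptor gene *SQSTM1* (10.95 and 10.86 against 9.79 and 9.8) were called higher. *SQSTM1* and *AKR1B10* (-1.03) were the called members of 28 NRF2 targets, and *AKR1B10* was not called when any of the 4 libraries was left out. *CYP1B1*, at 0.66, was the called member of 9 targets of the aryl hydrocarbon receptor, and the call was lost without the second library of either inhibitor. Of 38 DNA replication genes, only *UHRF1*, a reader of DNA methylation, was called lower, at -0.68. That is 2.63% of the list, near the 2.2% of all genes. At any fold 13 of the 38 were lower (10.2% of all genes were) and none was higher, with a median of -0.17. The neural lineage factor gene *OLIG2*, on the glioma identity list, was called lower at -1.08. No member was called among 36 genes of mitosis, 33 of oxidative phosphorylation, 37 cytosolic ribosomal proteins, 15 cytosolic heat shock proteins, 27 interferon-stimulated genes and 5 metallothionein and zinc genes, whose medians lay between -0.083 and 0.075.

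Genes that respond to ischemia on its own were taken from the untreated libraries of the first experiment (adjusted p below 0.05 and 2-fold, limma on those 4 libraries alone). Of 1529 genes raised by ischemia there, 1499 were tested here, and of these 84 were called higher and 53 lower with MK25 than with VX745, with a median of 0.073. Of 1234 genes lowered by ischemia, 1222 were tested, and of these 39 were called higher and 75 lower, with a median of -0.067. As shares, 5.6% and 3.54% of the raised genes and 3.19% and 6.14% of the lowered genes were called higher and lower, beside 1.75% and 2.2% of all genes.

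The regular cultures held the same 2 compounds in 4 libraries. These did not enter the ischemic difference but, through the shared fit, entered its SE and p-value. In regular culture 173 genes (1.23%) were called higher with MK25 than with VX745 and 32 (0.228%) lower. The lower count was 20 without the first regular VX745 library and 16 without the second. Of the 246 genes higher in ischemic culture, 220 (89.4%) had the same sign in regular culture and 67 were also called higher, which is 27.2% of them and 38.7% of the 173. Of the 309 lower genes, 239 (77.3%) had the same sign and 18 were also called lower, which is 5.83% of them and 56.2% of the 32. Over all genes 61.3% had the same sign. The Pearson correlation of the differences across the 14024 genes was 0.347, where genes are not independent replicates.

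Whether a difference depended on the culture was tested directly, as the ischemic difference minus the regular difference. It was more positive in ischemic culture for 178 genes (1.27%) and more negative for 502 (3.58%), at an adjusted p below 0.05. The total of 680 was 360 without the second ischemic VX745 library, 388 without the first, and 419 without the first ischemic MK25 library. Of the genes called lower in ischemic culture, 155 of 309 were among those more negative there, a description only, since the ischemic difference that chose them is also a term of this test. *EGR1* was at 4.2 with MK25 and 4.35 with VX745 in regular culture, a difference of -0.16 that was not called, and its culture dependence was -1.66 (limma, adjusted p = 2.85e-06). *HBEGF*, *MYC*, *CCND1* and *DUSP5* had regular differences of -0.0025, 0.28, -0.05 and 0.13, with a culture dependence between -1.54 and -1.12. *FOS*, *ID2*, *ID3* and *TNS1*, a focal adhesion protein, were the other way round, called higher in ischemic culture and not in regular culture. *TNS1* stood at 4.66 and 4.66 with MK25 and 2.94 and 2.98 with VX745 in ischemic culture, against regular means of -0.86 and -0.35, a culture dependence of 2.21 (limma, adjusted p = 3.48e-05).

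**Figure D4:**
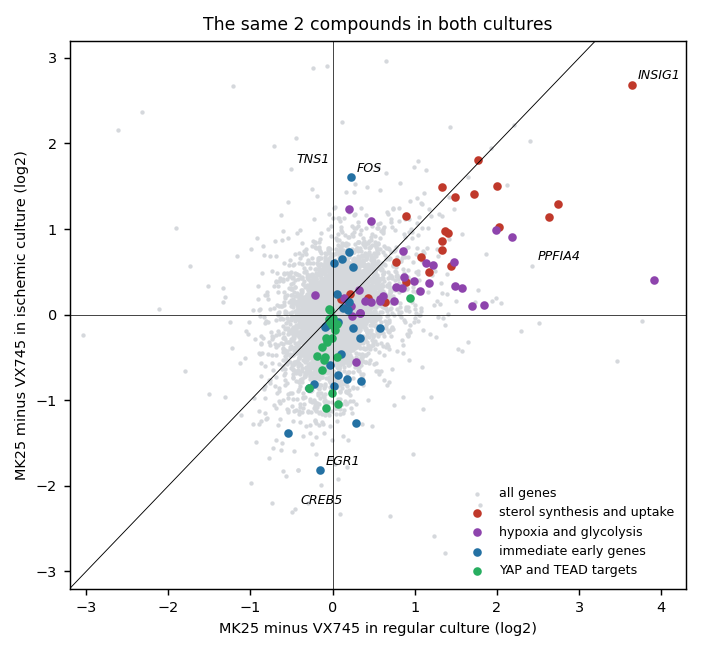
Difference between MK25 and VX745 in regular (horizontal axis) and ischemic (vertical axis) culture, both log2, with 1 point per gene and 4 gene lists in color, and a line where both are equal (7 genes lie outside the axes). Sterol genes lie to the right of 0 and above it, hypoxia genes mostly far to the right and little above, and immediate early and YAP and TEAD genes near 0 in regular culture.

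Sterol genes were higher with MK25 in both cultures, with 20 of 23 called higher in regular culture and a median of 1.34 there. By the test of culture dependence the difference was larger in regular culture for 13 of the 23 and smaller for none. *INSIG1* was at 7.37 with MK25 and 3.72 with VX745 in regular culture, and its culture dependence was -0.96 (limma, adjusted p = 1.43e-05). *SCD*, *FADS2* and *STARD4* differed by 1.93, 1.64 and 1.76 in regular culture, and their culture dependence was 0.025 ± 0.11, -0.036 ± 0.088 and 0.042 ± 0.14 (SE), none past the test (adjusted p from 0.897 to 0.945). Hypoxia and glycolysis genes were called higher with MK25 in regular culture for 19 of 34 members, with a median of 0.76, and 21 were more negative in ischemic culture. *BNIP3*, a mitophagy receptor, was at 7.04 with MK25, 5.35 with VX745 and 5.14 with DMSO in regular culture, and at 9.2 and 9.21, 9.09 and 9.13 and 9.38 and 9.39 in the ischemic libraries. The difference between the inhibitors was 1.7 in regular and 0.098 in ischemic culture. *AK4*, a mitochondrial adenylate kinase, and *PPFIA4*, a liprin, had regular differences of 1.93 and 2.43 and ischemic ones of 0.15 and 0.57. The ATF4 and CHOP targets had a regular median of 0.37, with 7 of 33 called higher, and 24 were more negative in ischemic culture.

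The ischemic DMSO libraries place each inhibitor. The DMSO mean was nearer VX745 than MK25 for 202 of the 246 higher genes (82.1%) and 179 of the 309 lower genes (57.9%). The share over all genes was 60.6%. The DMSO mean lay between the inhibitors for 136 of the higher genes (55.3%) and 215 of the lower genes (69.6%), against 23.5% of all genes. For the higher genes the medians were 0.81 for MK25 minus DMSO and -0.09 for VX745 minus DMSO. For the lower genes they were -0.52 and 0.36. Both inhibitors are set against the same DMSO libraries here, and the genes were chosen for a difference between the inhibitors, so these positions are a description.

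Genes with near-identical copies could differ between libraries of 1 group. *EIF3CL*, a near-identical copy of EIF3C, stood at 3.19 and 3.27 with MK25 and 6.37 and 3.43 with VX745. Of the 555 called genes, 8 have a copy on an alternate scaffold of the genome, and genes of both kinds are uncertain and were left out of the ranked genes.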

How the data were processed

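RNA from LN229 cells was sequenced by the authors with a SMART-Seq kit, which does not mark strand, so overlapping genes on opposite strands cannot be told apart. Per the labels, reads were aligned to GRCh38 with HISAT2 and processed with edgeR. The values deposited by the authors are log2 normalized CPM with a small offset, and versions are not given in the sources used here. Undoing the logarithm gave whole reads for 100% of values, which gave the depth, and a level at 3 reads or fewer was taken as the floor. Such floors cover counting error only.

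limma 3.58.1 (R 4.3.3) was fitted to the deposited log2 values of all 12 libraries of the second experiment, with 1 mean per group and a variance trend. The p-values are two-sided. The study's methods use a count test. The deposited values are log2, so limma was used, with voom on the recovered reads as an alternative, and no other count test was run on those reads. The fit was tested on simulated data. Named genes were the 10 largest rises and falls with a mean level of at least 3 and separated libraries, up to 4 called members per list, all members of the p38-MK2 cascade and cytokine lists, a fixed set of stress genes, and the 3 genes with the smallest p for culture dependence each way. Other list members were named after their values were seen. The 29 gene lists and the comparison were chosen with earlier results of these data known. Symbols and positions came from RefSeq (GRCh38.p14) and 3' UTRs from GENCODE release 44. Alternatives were other fold thresholds, an unadjusted p, a filter at 1 CPM, median centring, quantile normalization, no variance trend, only the libraries compared, voom, the replicate number as a block and each library left out. The fit without genes copied on any of 261 alternate scaffolds was added after seeing the data. Some genes that the rule names are not reported here. A copy means that 50% or more of a transcript's 31-base words occur there. Python 3.11.15, numpy 2.4.6, pandas 2.3.3 and matplotlib 3.10.9 made the tables and figures.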

Additional observations from a re-analysis of the deposited data

Results flagged for a closer look

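The difference between MK25 and VX745 depended on the culture, by the test of the ischemic minus the regular difference, for 20 genes among the largest rises and falls and the genes chosen for the smallest p of this same test (*PPFIA4*, *AK4*, *BNIP3*, *MAF*, *ID2* and *ID3*). Over all 14024 genes, 680 passed it, among them further genes named for other reasons. Among the 20, it was more negative in ischemic culture for *PPFIA4* (-1.86), *CREB5* (-1.82), *AK4* (-1.78), *EGR1* (-1.66), *BNIP3* (-1.6), *TRIB1* (-1.54), *HBEGF* (-1.46), *IL1RL1* (-1.46), *TMCC3* (-1.23), *NAV3* (-1.12), *ADAMTS16* (-1.11), *INSIG1* (-0.96), *JUN* (-0.84) and *CALB2* (-0.62), on the log2 scale. It was more positive for *MAF* (1.01), *IGFBP5* (1.07), *ID3* (1.22), *ID2* (1.26), *FOS* (1.38) and *TNS1* (2.21). For *PPFIA4*, *AK4*, *BNIP3* and *INSIG1* both cultures had a difference above 0, and the regular one was the larger. *MAF*, a bZIP factor, stood at 7.33 and 7.39 with MK25 and 6.53 and 6.5 with VX745 in ischemic culture, and at regular means of 5.13 and 5.3. *IGFBP5*, which binds insulin-like growth factors, stood at 8.82 and 8.95 against 7.43 and 7.35, and at regular means of 7.34 and 6.92. The largest rises and falls were chosen by the ischemic difference, which is also a term of the test of culture dependence. Their passing it is thus a description only.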

How the results depend on the processing

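The 246 higher and 309 lower genes of ischemic culture became 1153 and 1427 at any fold, and 67 and 108 at 2-fold. Under the other alternatives the counts stayed within 1.5 times, with 187 to 221 higher and 250 to 280 lower genes when 1 library was left out. In regular culture, 173 higher and 32 lower genes became 556 and 200 at any fold, 80 and 6 at 2-fold, and 265 and 94 at an unadjusted p. The lower count was 21 with voom on the recovered reads and 16 to 35 without 1 library, the least without the second VX745 library and 20 without the first, and the higher count was 154 to 183. The 680 genes with culture dependence became 270 at 1.5-fold, 2401 at an unadjusted p, 347 without a variance trend and 360 to 676 without 1 library. The cause of these shifts was not tested, beyond the thresholds' own construction.

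Replicate numbers are shared across groups, but the deviations of libraries with the same number correlated between -0.094 and 0.13 over 15 pairs of groups, with 1 pair over 0.1, so the numbers were not taken as pairs. With a replicate block, 251 genes were higher and 314 lower, and 246 and 306 of the called genes kept their call. Fewer of the called genes kept it, in both directions, in each fit that left 1 library out. Of 69 named called genes, 62 to 69 kept their call under each alternative. The genes that lost it under at least 1 alternative were *CSF3*, *TSLP*, *NFKBIZ*, *NUPR1*, *AKR1B10*, *CYP1B1*, *MMP10* and *CCL2*. A fit without a library leaves 1 sample in its group, which is assumed to vary like the others. Under another scaling, a list median named above turned sign only for genes without the nonamer, the ER chaperone and degradation list and NRF2 targets. These medians were all near 0. Leaving out a library turned the sign for the p38-MK2 cascade, AU-rich element regulators, genes with the nonamer and markers of other cell types.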
